A study of Mus musculus with 12 samples.

Results

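The hypoxia response genes described here are 10 transcripts that rise in many cell types when oxygen falls: Vegfa, Adm, Bnip3, Egln3, Car9, Ankrd37, Pdk1, Ndrg1, Hif3a and Ddit4. They were taken by gene name from a table of 26190 mouse genes, and all 10 were found in it. The libraries came from hearts of E11.5 embryos (E11.5H) and from heart organoids (HOs) after 13 days of culture. Both were cut by chamber, giving 4 groups of 3 libraries: embryonic atria, embryonic ventricles, and the atrium-like and the ventricle-like parts of HOs. The labels give C57BL/6 for all 12 libraries and name no genetic change or drug. HOs grow from embryoid bodies of mouse embryonic stem cells on a gel of laminin and entactin in medium with FGF4, and receive BMP4, BIO and LIF later in the culture. The study used stem cell lines from C57BL/6 and from an F1 hybrid with JF1, and which line gave which library is not given in the sources used here. HOs have no blood supply, whereas the chambers at E11.5 hold blood. The question was whether the HO parts differed from the embryonic chambers in these genes, library by library. The labels call the 3 libraries of a group replicates. By the study's methods both HO parts were cut from the same HOs, described as biological triplicates, but whether libraries of equal number share an HO, and how many embryos gave a library, is not given in the sources used here. The p-values therefore measure the spread between these libraries.

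In cells with enough oxygen, the prolyl hydroxylases mark the HIF alpha subunits, the von Hippel-Lindau protein binds the marked subunit and the proteasome destroys it. When oxygen is short, HIF1A or EPAS1 (HIF-2 alpha) stays, pairs with ARNT and binds short DNA motifs near target genes. These targets raise glucose uptake and glycolysis, vessel growth and the removal of mitochondria, and they include a prolyl hydroxylase that feeds back on the pathway. The developing heart is known to use the pathway in the growth of its muscle wall and its vessels.

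The letters bound by HIF can be seen upstream of several of these genes. The core of the motif was searched as ACGTG or GCGTG on both strands, counting overlapping matches separately, in the 300 bases from 250 before to 50 after each start in RefSeq (GRCm38.p6). It was present in 43.8% of 32851 promoters of this length. Of the 9 genes with an entry, 8 had it at the start used in the expression table. Vegfa had none there and 2 matches at a second start. The motif is short and rich in CG, so a match is a description of these letters only. The 250 bases before the start are shown, 5′ to 3′ on the gene's strand with the matches in capitals, for the 4 genes that were called higher in both HO parts and had a match at that start.

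Ankrd37, chr8:45999851-46000100, minus strand: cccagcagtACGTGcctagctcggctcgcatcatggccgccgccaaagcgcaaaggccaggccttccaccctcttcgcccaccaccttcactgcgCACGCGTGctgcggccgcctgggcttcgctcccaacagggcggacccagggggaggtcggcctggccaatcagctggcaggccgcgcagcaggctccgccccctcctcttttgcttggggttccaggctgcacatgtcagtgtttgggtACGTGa
Ddit4, chr10:59951771-59952020, minus strand: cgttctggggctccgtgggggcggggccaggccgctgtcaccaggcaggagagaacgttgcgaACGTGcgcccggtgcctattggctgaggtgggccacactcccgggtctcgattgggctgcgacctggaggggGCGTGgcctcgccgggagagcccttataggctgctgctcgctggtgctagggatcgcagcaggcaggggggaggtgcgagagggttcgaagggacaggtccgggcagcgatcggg
Car9, chr4:43506776-43507025, plus strand: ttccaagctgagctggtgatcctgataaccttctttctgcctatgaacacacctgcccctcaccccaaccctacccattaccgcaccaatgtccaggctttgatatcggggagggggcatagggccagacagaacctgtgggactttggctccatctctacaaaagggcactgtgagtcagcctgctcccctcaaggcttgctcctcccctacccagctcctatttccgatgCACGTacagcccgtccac
Egln3, chr12:54203875-54204124, minus strand: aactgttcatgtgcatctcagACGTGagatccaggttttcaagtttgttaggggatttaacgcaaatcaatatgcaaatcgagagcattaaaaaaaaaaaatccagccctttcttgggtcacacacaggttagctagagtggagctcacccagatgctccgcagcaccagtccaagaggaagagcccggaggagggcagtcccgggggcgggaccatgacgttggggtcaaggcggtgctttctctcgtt

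The libraries held 23971258 to 30540993 fragments assigned to genes, and none of the 10 genes was at 0 in any library. The RNA of cell type markers differed between tissues and between HO libraries. The summed level of 12 cardiomyocyte markers was 33699 to 42652 CPM (counts scaled to the library total) in E11.5H and 746 to 10022 CPM in HOs, with none of the 12 markers at 0. For 10 endothelial markers the sums were 572 to 702 and 33.1 to 326 CPM. Markers of hepatocytes and visceral endoderm, 12 genes, summed to 37.5 to 47.4 CPM in E11.5H and 265 to 33225 CPM in HOs. They were highest in atrium-like part 1 (33225 CPM), atrium-like part 3 (14100 CPM) and ventricle-like part 3 (13695 CPM), called the endoderm-rich libraries below. The part of these differences in the results below was not tested, and in bulk RNA fewer cells of a type and less RNA per cell cannot be told apart.

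Of the 10 genes, 8 were higher in each of the 6 HO libraries than in any of the 6 E11.5H libraries: Vegfa, Adm, Car9, Egln3, Ankrd37, Ndrg1, Ddit4 and Bnip3. Hif3a was lower in all 6 HO libraries, and Pdk1 overlapped. Over all 16494 genes tested, 13.8% were higher in every HO library and 13.6% were lower in every HO library. Within each chamber as well, 8 of the 10 were higher and 1 was lower with no overlap, against 24.1% and 30.3% of genes for the atrial and 29.6% and 21.1% for the ventricular comparison. Levels are given as FPKM (fragments scaled to the length of the transcript and to the library total). The smallest gap, the lowest HO library over the highest E11.5H library, was 16.8-fold for Ndrg1, 16.3-fold for Egln3, 8.21-fold for Car9 and 3.63-fold for Ankrd37. It was 2.87-fold for Vegfa, 2.40-fold for Ddit4, 1.23-fold for Bnip3 and 1.14-fold for Adm.

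**Figure D1:**
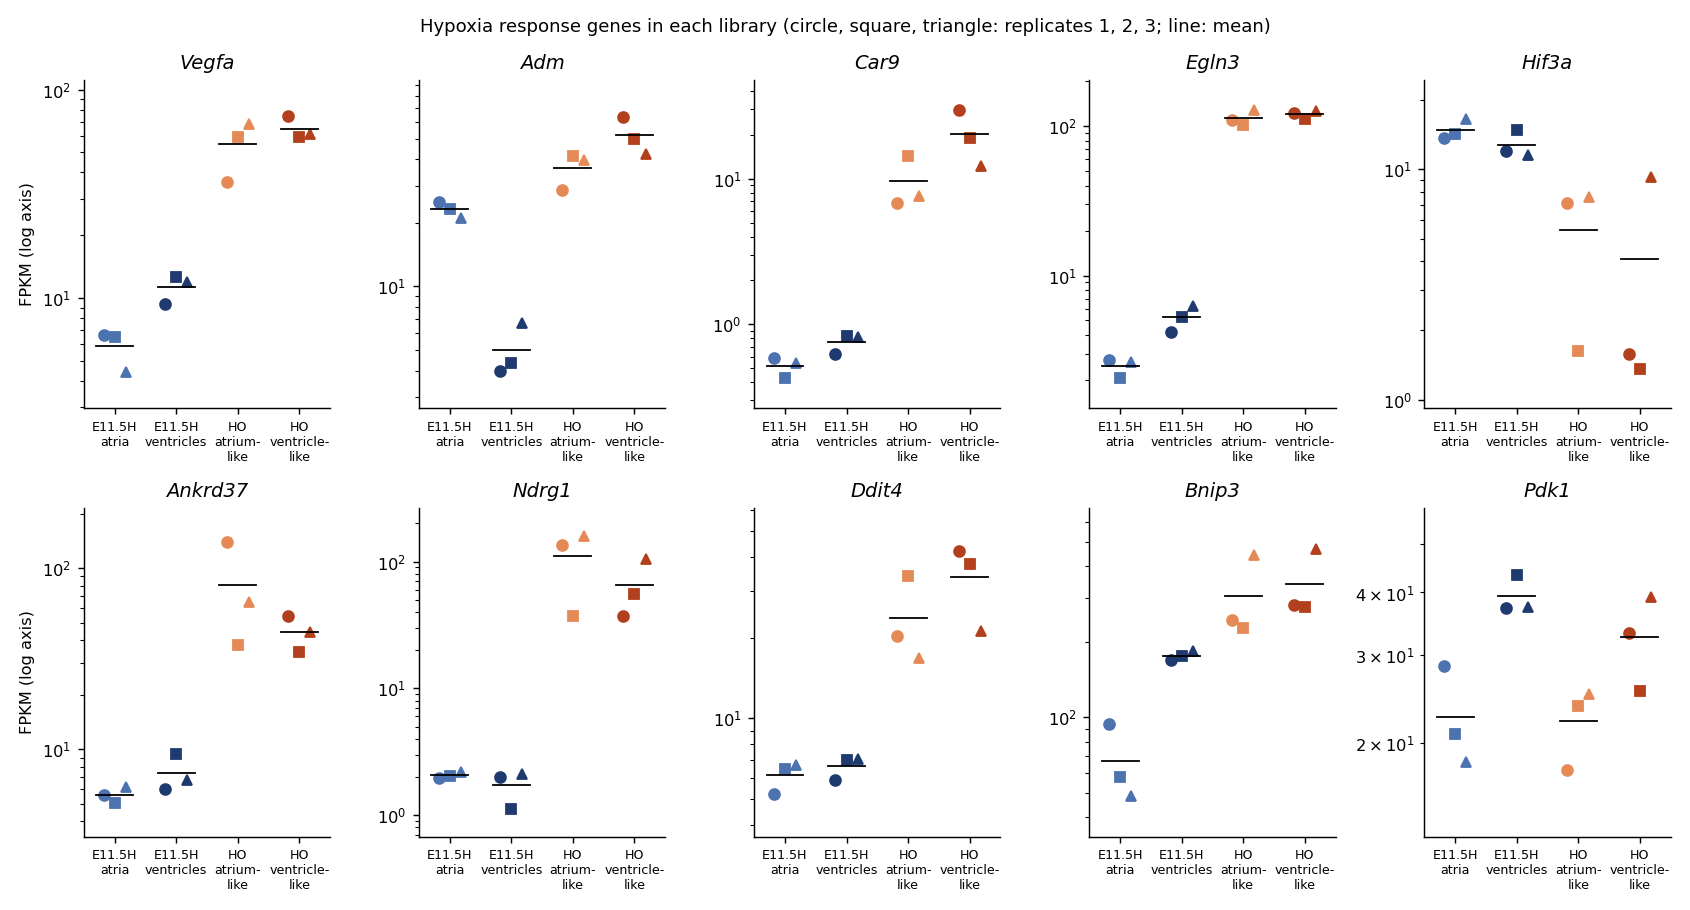
FPKM (log axis) of the 10 genes in each of the 12 libraries by group; circles, squares and triangles are replicates 1, 2 and 3 and lines are group means. For 8 genes every HO library lies above every E11.5H library, Hif3a lies below in all 6 HO libraries, and Pdk1 overlaps.

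Vegfa and Adm encode secreted signals. Vegfa, the main growth factor for endothelial cells, was at 6.67, 6.50 and 4.43 FPKM in the atria and at 36.1, 59.0 and 68.4 FPKM in the atrium-like parts. In the ventricles it was at 9.41, 12.6 and 11.9 FPKM and in the ventricle-like parts at 74.4, 59.2 and 61.4 FPKM. The groups did not overlap in either chamber. The log2 fold change of HO part over chamber, fitted with edgeR on the counts, was 3.37 ± 0.28 (SE; adjusted p = 0.00161) for the atrial and 2.43 ± 0.18 (adjusted p = 0.00136) for the ventricular comparison.

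Adm encodes adrenomedullin, a peptide that relaxes vessels and is needed for lymphatic and cardiac development. It was at 25.0, 23.3 and 21.1 FPKM in the atria, where it was already high, and at 28.6, 41.4 and 39.5 FPKM in the atrium-like parts. The ventricles held 3.96, 4.36 and 6.75 FPKM, and the ventricle-like parts 63.7, 49.7 and 42.1 FPKM. All 4 groups were thus separate from one another in order from the ventricles through the atria and atrium-like parts to the ventricle-like parts. The edgeR log2 fold change was 0.82 ± 0.16 (SE; adjusted p = 0.0147) in the atrial comparison, under the limit of 1 set for a call, and 3.27 ± 0.30 (adjusted p = 0.00208) in the ventricular comparison.

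Egln3 and Hif3a act on the pathway itself. Egln3 encodes the prolyl hydroxylase PHD3, a known HIF target that marks the HIF alpha subunits. Its level was 2.71, 2.06 and 2.64 FPKM in the atria, 4.22, 5.27 and 6.28 FPKM in the ventricles, 111, 102 and 128 FPKM in the atrium-like parts and 123, 111 and 126 FPKM in the ventricle-like parts. The 6 HO libraries were within 1.25-fold of each other (coefficient of variation 8.71%), the narrowest range of the 10 genes in HOs. The edgeR log2 fold changes were 5.70 ± 0.25 (SE; adjusted p = 0.00123) for atrium-like parts and 4.41 ± 0.20 (adjusted p = 0.000781) for ventricle-like parts.

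Hif3a encodes HIF-3 alpha, some forms of which hold back the other HIF proteins. It was the 1 gene of the 10 below the embryo in all HO libraries. Levels were 13.6, 14.2 and 16.6 FPKM in the atria, 11.98, 14.7 and 11.54 FPKM in the ventricles, 7.15, 1.62 and 7.55 FPKM in the atrium-like parts and 1.57, 1.35 and 9.27 FPKM in the ventricle-like parts. The HO libraries fell into a low set of 3 and a high set of 3 with a 6.86-fold range, and the high set was the 3 endoderm-rich libraries. In edgeR neither chamber gave a call: the log2 fold change was -1.21 (95% interval -2.63 to 0.21, adjusted p = 0.162) in the atrial and -1.74 (-3.60 to 0.13, adjusted p = 0.136) in the ventricular comparison. Other tools did call it lower, limma-voom (-1.66, adjusted p = 0.0370) and limma on log2(FPKM + 1) (-1.47, adjusted p = 0.0470) in the atrial and DESeq2 (-1.72, adjusted p = 0.0401) and limma-voom (-2.33, adjusted p = 0.0211) in the ventricular comparison. Averaged over both chambers it was -1.46 ± 0.54 (SE; adjusted p = 0.0421), a call that was kept in 2 of 12 fits that each left out 1 library, the others giving adjusted p up to 0.0812, for -1.27 without ventricle-like part 1. Leaving out the endoderm-rich libraries, a choice made after seeing the data, removes this high set, so a lower value follows from the choice: it was -3.23 in the atrial comparison, with 1 atrium-like library left, and -3.25 in the ventricular comparison, where ventricle-like part 3 is the 1 library removed.

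Car9, Bnip3 and Pdk1 serve pH, mitochondria and fuel use. Car9 encodes the membrane enzyme carbonic anhydrase 9, which handles acid outside the cell. It was nearly silent in the embryo, at 0.585, 0.426 and 0.544 FPKM in the atria and 0.624, 0.826 and 0.818 FPKM in the ventricles, from 28.1 to 52.3 fragments a library. The atrium-like parts held 6.79, 14.4 and 7.58 FPKM and the ventricle-like parts 29.8, 19.2 and 12.3 FPKM, so the HO libraries spanned 4.39-fold but stayed apart from the embryo. By edgeR, log2 fold changes were 4.33 ± 0.38 (SE; adjusted p = 0.00185) and 4.67 ± 0.41 (adjusted p = 0.00179).

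Bnip3 encodes a mitochondrial outer membrane protein that drives mitophagy, and had the highest levels of the 10. It was at 93.8, 57.9 and 48.7 FPKM in the atria, 169, 176 and 184 FPKM in the ventricles, 244, 227 and 446 FPKM in the atrium-like parts and 279, 276 and 469 FPKM in the ventricle-like parts. Both HO groups had 1 high library, replicate 3, and both of these were endoderm-rich. The most endoderm-rich library, atrium-like part 1, was not high, at 244 FPKM. In edgeR the log2 fold change was 2.37 ± 0.39 (SE; adjusted p = 0.00847) against atria and 0.86 ± 0.23 (adjusted p = 0.0367) against ventricles. The latter was under the fold limit, and passed it at 1.02 (adjusted p = 0.0240) without ventricle-like part 2.

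Pdk1 encodes a pyruvate dehydrogenase kinase, which holds back the use of pyruvate by pyruvate dehydrogenase, and is a textbook HIF target. It did not follow the other genes. The atria held 28.5, 20.8 and 18.3 FPKM and the atrium-like parts 17.6, 23.7 and 25.0 FPKM, while the ventricles held 37.2, 43.4 and 37.5 FPKM and the ventricle-like parts 33.1, 25.3 and 39.2 FPKM. HO and embryo overlapped in both chambers. The edgeR log2 fold change was 0.13 (95% interval -0.39 to 0.65, adjusted p = 0.672) for the atrial and -0.36 (-0.81 to 0.077, adjusted p = 0.177) for the ventricular comparison, so both intervals ended below 1, the limit for a call.

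Ankrd37, Ndrg1 and Ddit4 are further HIF targets with roles in ankyrin-repeat protein binding, differentiation and stress, and growth control. Ankrd37 was at 5.61, 5.05 and 6.17 FPKM in the atria, 6.07, 9.47 and 6.73 FPKM in the ventricles, 140, 37.7 and 65.3 FPKM in the atrium-like parts and 54.6, 34.4 and 44.6 FPKM in the ventricle-like parts. Atrium-like part 1 stood above the other HO libraries. Both comparisons gave a call in edgeR, at log2 fold changes of 4.10 ± 0.60 (SE; adjusted p = 0.00604) and 2.50 ± 0.28 (adjusted p = 0.00305). Exons of Ankrd37 overlap those of Ufsp2 and Lrp2bp on the opposite strand, and whether the counting used strand is not given in the sources used here. Ufsp2 had log2 fold changes of 0.60 and 0.24 in the same comparisons, at 18.5 to 28.7 FPKM in HOs and 15.0 to 21.2 FPKM in E11.5H. Lrp2bp had 2.41 (adjusted p = 0.0583) and 0.54 (adjusted p = 0.679), at or below 1.70 FPKM in all libraries.

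Ndrg1 encodes a cytoplasmic protein linked to differentiation and to stress, and had the largest log2 fold change of the 10 in both chambers with all libraries in the fit. Levels of 1.96, 2.03 and 2.20 FPKM in the atria and 1.99, 1.13 and 2.11 FPKM in the ventricles compared with 135, 37.0 and 159 FPKM in the atrium-like parts and 37.0, 55.4 and 104 FPKM in the ventricle-like parts. The 3 HO libraries above 100 FPKM were the 3 endoderm-rich ones. Log2 fold changes from edgeR were 5.97 ± 0.67 (SE; adjusted p = 0.00332) and 5.14 ± 0.51 (adjusted p = 0.00229). Without the endoderm-rich libraries, which were its 3 highest, they were 4.13, with 1 atrium-like library left, and 4.59, then below Egln3 (5.34) and Car9 (4.75) in the atrial and below Car9 (4.91) in the ventricular comparison. Antisense transcripts overlap the exons of Ndrg1, Bnip3 and Car9, so that a share of their fragments may belong to these.

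Ddit4 encodes REDD1, an inhibitor of the growth kinase mTORC1 that is induced by low oxygen and by other stresses. It was at 5.21, 6.48 and 6.71 FPKM in the atria, 5.89, 6.97 and 7.03 FPKM in the ventricles, 20.4, 34.0 and 16.9 FPKM in the atrium-like parts and 42.3, 37.7 and 21.2 FPKM in the ventricle-like parts. The endoderm-rich libraries were the lowest of the HO libraries here, whereas they were the highest for Ndrg1. The edgeR log2 fold changes were 2.10 ± 0.27 (SE; adjusted p = 0.00452) and 2.25 ± 0.29 (adjusted p = 0.00438).

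A gene was called when its adjusted p in edgeR's quasi-likelihood test was under 0.05 and its log2 fold change was beyond 1 in either direction. In atrium-like parts against atria, 7 of the 10 genes were called higher and 0 lower, where 16.0% of 15418 genes tested were called higher and 8.81% lower. In ventricle-like parts against ventricles, 7 of 10 were higher and 0 lower, against 11.6% and 7.35% of 15094 genes. The 10 genes were chosen with earlier results of these data known, so these counts are a description only. At an unadjusted p under 0.05, 8 of the 10 differed in each comparison, all of them higher, where 44.4% and 42.8% of genes differed in either direction. Vegfa, Egln3, Car9, Ankrd37, Ndrg1 and Ddit4 were called in both, Bnip3 against atria and Adm against ventricles. The median log2 fold change of the 10 was 2.87 and 2.46, and that of all genes tested 0.062 and 0.093. Averaged over both chambers, 8 of 10 were called higher and 1 lower (Hif3a), against 20.6% and 10.2% of 16494 genes. With the 3 endoderm-rich libraries left out, 7 genes were called higher and Hif3a lower in each chamber, against 14.3% and 9.77% of 16587 genes in the atrial and 14.4% and 9.42% of 15606 genes in the ventricular comparison, the atrium-like group then being 1 library that was assumed to vary like the others. Erythroid markers, which summed to 5158 to 50023 CPM in E11.5H and 2.34 to 18.6 CPM in HOs, take a share of the embryonic fragments. With 12 hemoglobin genes left out of the library sizes, 7 of the 10 genes were called higher and 0 lower in each chamber. Of all genes, 16.0% were then called higher and 8.84% lower in the atrial comparison, and 11.6% and 7.37% in the ventricular comparison. The part of other RNA from blood cells in the results was not tested.

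**Figure D2:**
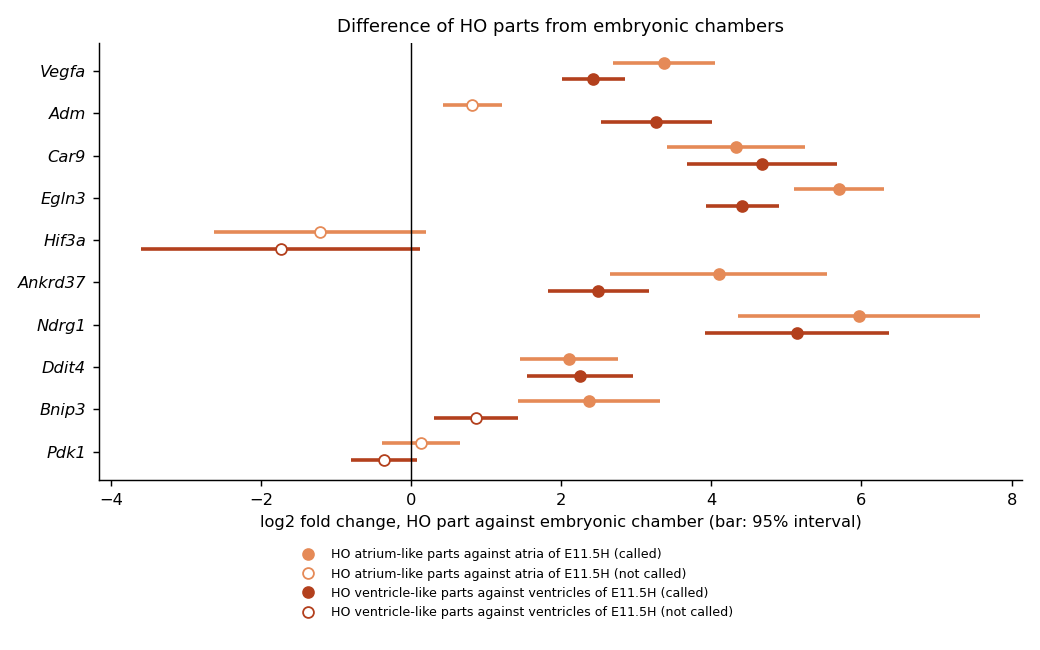
Log2 fold change (points) with its 95% interval (bars) of each gene in atrium-like parts against atria and in ventricle-like parts against ventricles, from edgeR; filled points were called. Egln3, Car9, Ndrg1, Ankrd37, Vegfa and Ddit4 are filled in both comparisons, and the intervals of Pdk1 and Hif3a include 0.

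The 2 chambers of the embryo already differed in some of these genes. In atria against ventricles of E11.5H, 1 of 10 was called higher and 3 lower, against 2.92% and 1.97% of 14536 genes. Without overlap, 1 was higher and 5 were lower, against 21.3% and 11.8% of genes. Vegfa (log2 fold change -1.02, adjusted p = 0.00353), Bnip3 (-1.47, adjusted p = 0.00102) and Egln3 (-1.16, adjusted p = 0.00603) were lower in atria, and Adm was higher (2.13, adjusted p = 0.000143), all from edgeR. Pdk1 was lower by less than the fold limit (-0.87, adjusted p = 0.00330). Vegfa was near the limit and lost its call without atria replicate 3 (-0.86) or without ventricles replicate 2 or 3 (-0.95 in each). Egln3 lost its call without ventricles replicate 3 (-0.99), and Pdk1 gained one without atria replicate 1 (-1.09).

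In HOs the same contrast gave no call. Of the 10 genes, 0 were called by edgeR between atrium-like and ventricle-like parts, 0 had an unadjusted p under 0.05, and DESeq2 and limma also called 0. Over 15703 genes edgeR called 0 (0%), 889 (5.66%) had an unadjusted p under 0.05, and DESeq2 called 59. Adm and Pdk1 were lower in every atrium-like than in every ventricle-like library, where 9.25% of genes tested were so. Their log2 fold changes were -0.35 (95% interval -0.88 to 0.18) and -0.40 (-0.94 to 0.15). The intervals were wide for Hif3a (-1.68 to 3.02) and Ndrg1 (-0.64 to 2.63), so that sizeable differences between HO parts were not detectable with these libraries.

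Whether the chamber difference itself differed between HO and embryo was tested as an interaction. Of the 10, edgeR called 1, Adm (-2.47 ± 0.33 on the log2 scale, SE; adjusted p = 0.0325), against 0.152% of 16494 genes. Adm was higher in atria than in ventricles in the embryo. In HOs it was lower in atrium-like than in ventricle-like parts, by a difference that was not called. The call was lost in 7 of 12 fits that left out 1 library: all 3 atria, ventricles 1 and 2, atrium-like part 3 and ventricle-like part 1 (-2.53 to -2.27, adjusted p 0.0630 to 0.123). With a replicate block it was lost too (-2.49, adjusted p = 0.126). Egln3 had an interaction of 1.27 (95% interval 0.65 to 1.90, adjusted p = 0.167), which was called without atrium-like part 2 (1.43, adjusted p = 0.0401).

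Library by library, the HO samples did not share 1 order across the genes. Ndrg1 and Hif3a were highest in the 3 endoderm-rich libraries and Ankrd37 was highest in atrium-like part 1. Car9 was highest in ventricle-like part 1 (29.8 FPKM) and lowest in atrium-like part 1 (6.79 FPKM), and Ddit4 was highest in ventricle-like part 1 (42.3 FPKM). Vegfa was lowest in atrium-like part 1 (36.1 FPKM), the library with the lowest cardiomyocyte sum (746 CPM), and Egln3 was nearly level. The summed level of all 10 genes was 1560 to 2691 CPM in HOs and 452 to 856 CPM in E11.5H.

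**Figure D3:**
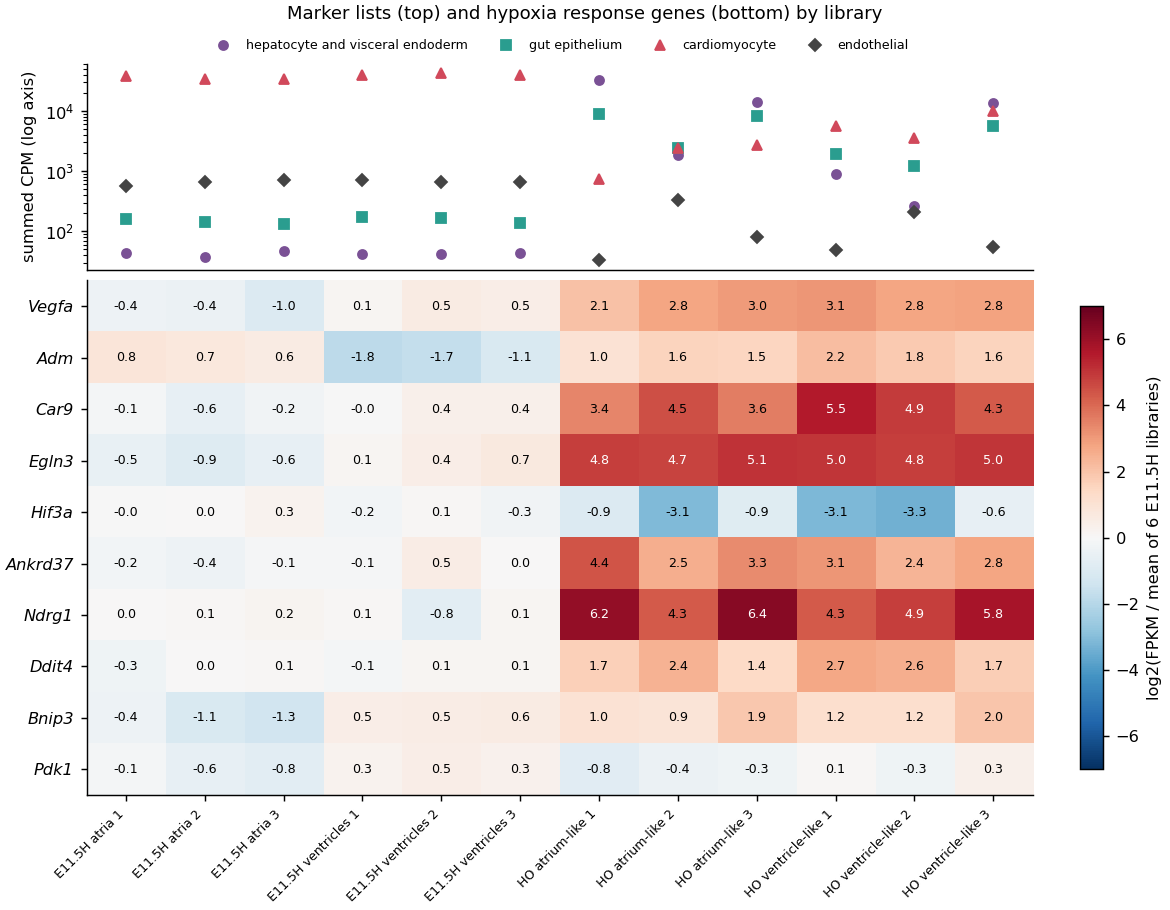
Top, summed CPM (log axis) of 4 marker lists in each library; bottom, log2 of each gene's FPKM over the mean of the 6 E11.5H libraries. Egln3 lies between 4.7 and 5.1 in all HO libraries. Among HO libraries, Ndrg1 and Hif3a are highest in the 3 with the highest hepatocyte and visceral endoderm sums.

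The sensors and subunits of the pathway form a short list, so its counts of calls are a description only. Of 8 HIF subunits and regulators, edgeR called 1, Epas1, higher and 0 lower in atrium-like parts, where 16.0% and 8.81% of all genes were. In ventricle-like parts it called 0, where 11.6% of all genes were called higher and 7.35% lower. There 3 of the 8 had an unadjusted p under 0.05 (42.8% of all genes), and DESeq2 and limma-voom also called 0. Hif1a was at 52.5, 61.2 and 46.0 FPKM in atria, 79.9, 83.6 and 72.8 in ventricles, 16.5, 70.9 and 21.1 in atrium-like parts and 78.5, 74.2 and 34.8 in ventricle-like parts. Its 3 lowest libraries were the endoderm-rich ones, and its log2 fold changes were -0.46 (adjusted p = 0.501) and -0.43 (adjusted p = 0.322) by edgeR. Without those libraries the atrial value turned to 0.38, with 1 atrium-like library left. As its lowest libraries were the ones removed, a higher value follows from the choice. Without atrium-like part 2 the atrial value of Hif1a was -1.26 (adjusted p = 0.00290), a call. The partner subunit Arnt (-0.01 and 0.00), Vhl (0.36 and 0.62) and the main oxygen sensor Egln1 (0.92 and 0.15) were not called. Egln1 was called at 1.03 without atrium-like part 1 and at 1.07 without atrium-like part 2. Epas1, the HIF-2 alpha subunit known from endothelial cells, was at 1.95, 24.4 and 13.5 FPKM in atrium-like parts and at 2.06, 2.18 and 2.73 FPKM in atria (log2 fold change 2.59, adjusted p = 0.0421), and kept the call in 1 of 6 fits that left out 1 library, adjusted p reaching 0.139 without atria replicate 1.

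Many other known HIF targets were also higher in HOs. Like the other related lists, this list was chosen with earlier results of these data known, so its counts are a description only. In atrium-like parts 22 of 27 were called higher (median log2 fold change 2.32), and in ventricle-like parts 16 of 27 (median 2.01), none lower, where 16.0% and 11.6% of all genes were called higher and 8.81% and 7.35% lower. They included Ndufa4l2, a mitochondrial complex subunit (5.93 ± 0.84, SE, and 3.57 ± 0.22), Angptl4, an inhibitor of lipoprotein lipase (4.26 ± 0.63 and 5.80 ± 0.69), the lipid droplet gene Hilpda (2.99 ± 0.23 and 3.30 ± 0.42) and the collagen prolyl hydroxylase P4ha1 (2.60 ± 0.25 and 2.20 ± 0.22). Angptl4 was at 7.36, 7.14 and 7.79 FPKM in atria and 55.0, 281 and 66.1 FPKM in atrium-like parts. The mitophagy gene Bnip3l, the histone demethylase Kdm3a and the endothelin gene Edn1 were not called in either part. The atrial count was 13 without atria replicate 2 and 12 without atria replicate 3, and 20 and 16 were called in the 2 parts without the endoderm-rich libraries.

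Glycolytic HIF targets were called at shares near those of all genes just given. Of 18, edgeR called 4 higher and 1 lower in atrium-like parts (median log2 fold change 0.60, 17 of 18 positive) and 3 higher and 1 lower in ventricle-like parts (median -0.026, 9 of 18 positive). The aldolase Aldoc (2.49 ± 0.29, SE, and 2.26 ± 0.19), the regulatory enzyme Pfkfb3 (2.41 ± 0.41 and 2.03 ± 0.16) and the hexokinase Hk2 (1.80 ± 0.35 and 1.01 ± 0.22) were higher in both, and the hexokinase Hk1 was lower in both (-1.52 ± 0.32 and -1.80 ± 0.12). The glucose transporter Slc2a3 was called in atrium-like parts (2.69, adjusted p = 0.0372) and not in ventricle-like parts (1.07, adjusted p = 0.0501). The abundant enzymes of the pathway were not called: Pgk1 differed by 0.62 and 0.05, Ldha by 0.78 and -0.22 and Gapdh by 0.01 and -0.06 on the log2 scale. The atrial count of 5 became 3, 2 and 2 when atria replicate 1, 2 or 3 was left out.

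Among relatives of the 10 genes, calls went in both directions, again at small counts against the shares of 16.0% higher and 8.81% lower (atrial) and 11.6% and 7.35% (ventricular) over all genes. Of 13 paralogs, 1 was called higher and 3 lower in atrium-like parts and 2 higher and 2 lower in ventricle-like parts. Pdk4, a kinase of the same enzyme as Pdk1 and known to be induced by fasting, was at 9.61, 11.2 and 11.6 FPKM in atria and 37.7, 31.7 and 61.1 FPKM in atrium-like parts. In ventricles it was at 8.66, 7.44 and 7.67 FPKM and in ventricle-like parts at 67.0, 40.6 and 78.5 FPKM, giving edgeR log2 fold changes of 2.19 (adjusted p = 0.00513) and 2.88 (adjusted p = 0.00208). Pdk3 went the other way (-1.36, adjusted p = 0.00470, and -1.85, adjusted p = 0.00164). The Pdk family thus held a member that rose, a member that fell and Pdk1, which was not called. The atrial count of 4 was 2 without any 1 of the 3 atria.

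Signalling partners of Vegfa and Adm were mixed. Of 8 other VEGF ligands and receptors, 1 was called higher and 2 lower in atrium-like parts (16.0% and 8.81% of all genes) and 1 higher and 3 lower in ventricle-like parts (11.6% and 7.35%). The atrial count of 3 was 5 with DESeq2, limma-voom and limma on either FPKM scale. Placental growth factor, Pgf, was higher (1.66, adjusted p = 0.0178, and 1.77, adjusted p = 0.0204, edgeR). Kdr, the main VEGF receptor of endothelial cells, was at 13.7, 21.7 and 15.6 FPKM in atria and 0.123, 2.64 and 0.985 FPKM in atrium-like parts (log2 fold change -3.69, adjusted p = 0.0255), and at 17.5, 2.67 and 0.370 FPKM in ventricle-like parts against 12.1, 14.3 and 10.2 FPKM in ventricles (-0.90, adjusted p = 0.583). The lymphatic receptor Flt4 was lower in ventricle-like parts (-4.11, adjusted p = 0.00469). The endothelial marker sum given above was lower in every HO library, and its part in these receptors was not tested. In the adrenomedullin list of 5 genes, Adm2 was at 0, 0 and 0.0475 FPKM in atria and 1.43, 1.50 and 3.83 FPKM in atrium-like parts, and the receptor Calcrl was called lower in ventricle-like parts (-1.48, adjusted p = 0.0465). The atrial VEGF count of 3 was 0, 1 and 0 without atria replicate 1, 2 or 3, and 5 and 6 without atrium-like part 1 or 2. The calls for Kdr, Pgf, Adm2 and Calcrl were each lost in at least 1 such fit.

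Genes of the integrated stress response, which is switched on by amino acid shortage, unfolded protein or low oxygen and shares targets such as Ddit4, were higher in HOs: 9 of 12 in each part (median log2 fold change 2.54 and 1.93), where 16.0% and 11.6% of all genes were called higher. Nupr1, a stress-induced chromatin protein, was at 1.90, 1.52 and 1.38 FPKM in atria and 47.7, 51.7 and 84.7 FPKM in atrium-like parts. It was at 1.94, 0.990 and 1.08 FPKM in ventricles and 70.8, 71.8 and 71.7 FPKM in ventricle-like parts. The glutathione-degrading enzyme Chac1 (5.77 ± 0.78, SE, and 5.26 ± 0.36) and the pseudokinase Trib3 (5.02 ± 0.49 and 3.72 ± 0.40) also rose. The chaperone Hspa5, the marker of the unfolded protein response, was not called (0.14 and 0.22). The count was again 9 in each part without the endoderm-rich libraries, and 7 to 10 without any 1 library.

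**Figure D4:**
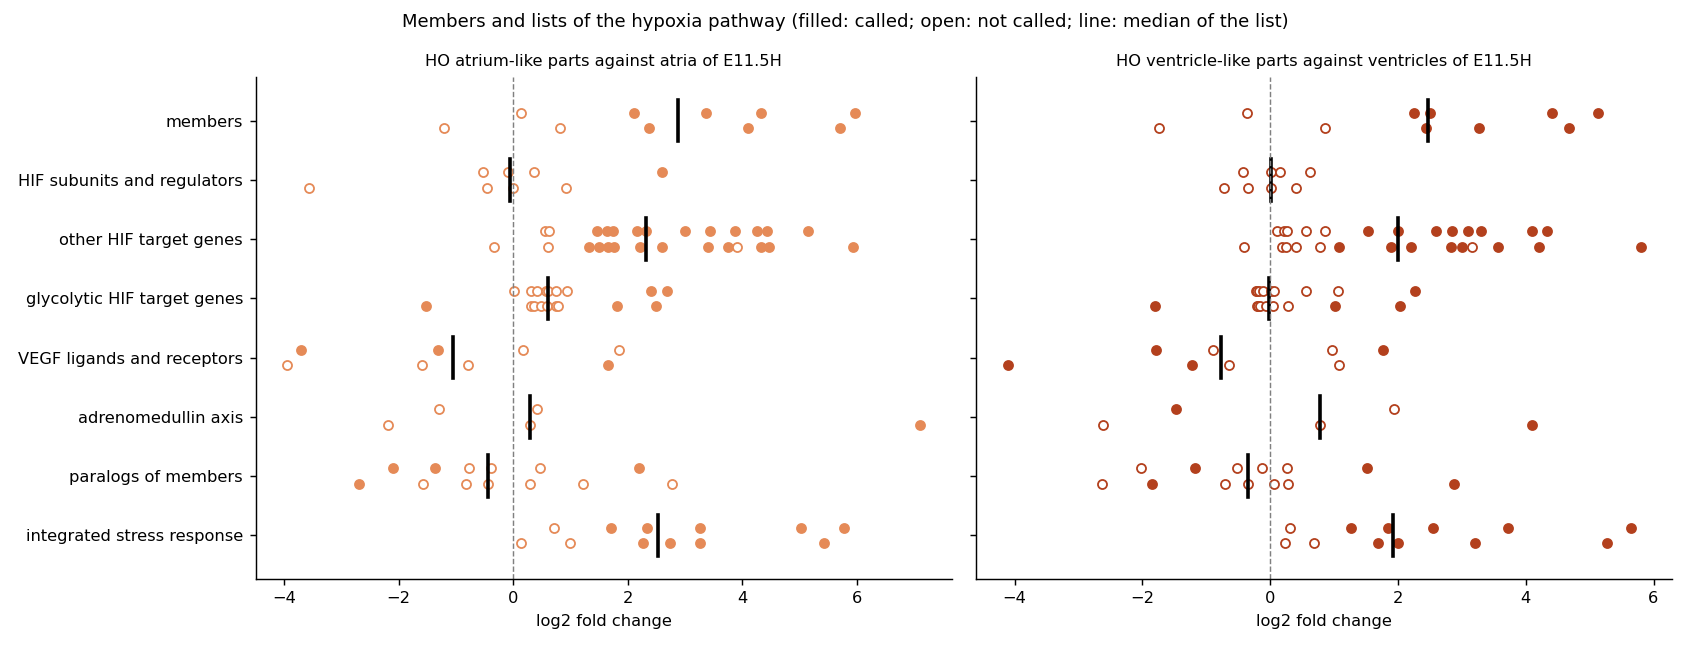
Log2 fold change of every tested gene of the 10 and of 7 related lists in atrium-like parts against atria (left) and ventricle-like parts against ventricles (right); filled points were called and lines are list medians. The lists of other HIF targets and of the integrated stress response lie mostly above 0, and the median of the glycolytic list is 0.60 on the left and -0.026 on the right.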

How the data were processed

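RNA-seq libraries, 3 per group, were made from total RNA of dissected parts of E11.5H and of HOs. By the study's methods, a company (Takara) prepared and sequenced them. Reads were aligned with STAR to mm10 per the labels; the STAR version, the annotation, the counting tool and its strand setting are not given in the sources used here. The deposited table holds, per gene and library, an expected count of fragments and the FPKM that the authors derived from it. Of the expected counts, 23.8% were not whole (tolerance 1e-06), and counts were rounded before testing.

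Groups came from the sample titles. Comparisons used edgeR 4.0.16 in R 4.3.3 (filterByExpr with a minimum count of 10, TMM factors, quasi-likelihood test, Benjamini-Hochberg adjustment over all genes tested) on the libraries of the groups compared, with all 12 for the averaged comparison and the interaction. A gene was called at an adjusted p under 0.05 and a log2 fold change beyond 1. The edgeR test gives no SE, so the SE was derived from the log2 fold change and the F statistic of the test. Intervals are at 95% and were built from this SE with a t distribution. DESeq2 1.42.0 and limma 3.58.1 were alternatives, as were other scalings, filters, pseudocounts of 1 and 0.1 on FPKM, a replicate block and leaving out each library; leaving out the endoderm-rich libraries was chosen after seeing the data. FPKM carries no correction for composition. A library with 0 fragments of a gene could hold up to 3, or 0.0982 to 0.125 CPM, by counting error only. The 10 genes, the gene lists and the tests were chosen with earlier results of these data known, and genes named from the related lists were those with the largest called changes plus Hif1a, Arnt, Vhl and Egln1, with a few others (Hilpda, P4ha1, Bnip3l, Kdm3a, Edn1, Hk2, Pgk1, Ldha, Gapdh, Hspa5) picked after their values were seen. Other marker lists, by their summed CPM in E11.5H and in HOs, were gut epithelium (133 to 174 and 1229 to 8956), fibroblast and mesenchyme (2156 to 4009 and 2862 to 27983), macrophage (56.4 to 110 and 162 to 1121), skeletal muscle (19.5 to 58.7 and 2.65 to 161), neural (130 to 161 and 41.3 to 969) and housekeeping genes (8990 to 9475 and 7267 to 8895). Promoters were matched by symbol in a RefSeq table (GRCm38.p6), which held 9 of the 10 genes. The fitting steps were tested on simulated counts.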

Additional observations from a re-analysis of the deposited data

Results flagged for a closer look

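The chamber difference of Adm, the adrenomedullin gene, ran in opposite directions in the 2 tissues. In E11.5H all 3 atria were above all 3 ventricles (log2 fold change 2.13, adjusted p = 0.000143, edgeR), and in HOs all 3 atrium-like parts were below all 3 ventricle-like parts (-0.35, adjusted p = 0.750). The test of the difference gave -2.47 on the log2 scale (adjusted p = 0.0325, edgeR). Of 12 other settings 1 lost the call, the fit with a replicate block (adjusted p = 0.126), and 7 of 12 fits that left out 1 library lost it too.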

How the results depend on the processing

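The calls among the 10 genes varied little in HO parts against chambers. The count stayed at 7 to 8 under all 14 alternatives in either chamber, at 7 against atria and 7 to 8 against ventricles when 1 library was left out, and at 8 to 9 averaged over chambers, where DESeq2 gave no adjusted p for Hif3a. Between the atria and ventricles of E11.5H the count of 4 fell to 2 with limma on log2(FPKM + 1) and to 1 with all 12 libraries in 1 fit, and was 2 to 5 without 1 library. Between HO parts it was 0 throughout. For the interaction the count of 1 became 2 with DESeq2 and 0 with the replicate block, and 0 to 2 without 1 library. The replicate numbers were not taken to pair the samples: deviations of same-numbered libraries correlated at 0.023, 0.048 and 0.076 in E11.5H and -0.088, 0.63 and 0.43 in HOs, and not every library correlated best with its own number. With the block, atria against ventricles kept 4 calls and the HO parts 0, and the interaction moved as above. In HO parts against chambers the block tied each HO library to the embryonic library of equal number. These share no HO or embryo, so its 7 and 7 calls say nothing on pairing. Averaged over chambers, the block was a limma-voom fit with a correlation between libraries of equal number in a tissue, and gave 9 calls.

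Over all genes, calls in ventricle-like parts went from 2859 to 4462 with no fold limit, averaged calls from 5084 to 3193 on log2(FPKM + 1) and 8325 with no fold limit, and atria against ventricles from 712 to 386, 30 and 1982 on log2(FPKM + 1), in 1 fit and with no fold limit. Interaction calls went from 25 to 455 (DESeq2), 89 and 45 (log2 FPKM with pseudocounts 1 and 0.1) and 5 (block). Leaving out 1 library gave 1662 to 5495 calls in atrium-like parts, 1116 to 3725 in ventricle-like parts and 2 to 216 for the interaction. The share of higher calls in atrium-like parts was 64.4% in edgeR, 59.8% without normalization factors and 51.5% and 51.7% with limma on the 2 FPKM scales, which differ from edgeR in both scale and test. Without normalization factors the all-gene median on the log2 scale moved from 0.062 to -0.073 in atrium-like and from 0.093 to 0.224 in ventricle-like parts.

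Values that turned sign were all uncalled and small. Arnt was at 0.0053 (RLE), 0.0019 (1 CPM filter), 0.0052 (DESeq2) and 2.12e-05 (limma-voom) in atrium-like parts, and at -0.016 (no filter), -0.0098 (limma-voom), -0.011 (block) and -0.19 (endoderm-rich libraries out) in ventricle-like parts. Pdk1 was at -0.019 on both FPKM scales in atrium-like parts. Hif1a was at 0.38 and Egln1 at -0.14 without endoderm-rich libraries. Car14 was at 0.0082 and 0.014 without factors and with housekeeping scaling. Between HO parts Bnip3 was at -0.13 (no factors), -0.025 (housekeeping), -0.0082 (limma-voom), -0.18 and -0.18 (FPKM) and -0.0068 (block), and Egln3 at -0.053 (no factors), -0.080 and -0.081 (FPKM). Without 1 library, Arnt ranged from -0.14 to 0.10 and from -0.19 to 0.14 in the 2 parts, Pdk1 from -0.0085 to 0.35, Car14 from -0.71 to 0.19 and Egln1 from -0.14 to 0.31. In the same way Ndrg1 between embryonic chambers ranged from -0.071 to 0.36, Vegfa and Bnip3 between HO parts from -0.31 to 0.038 and from -0.33 to 0.32, and the interactions of Ddit4 and Car9 from -0.40 to 0.058 and from -0.64 to 0.046. The causes were not tested. With 3 libraries a group, differences between HO parts of the size of their intervals could not be detected.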
